A study of Micropterus salmoides with 24 samples.

Results

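This account concerns the trunk kidney of glyphosate-exposed largemouth bass, set against the trunk kidney of bass kept in clean water. It rests on 8 of the 24 libraries of the series, the 4 titled as trunk glyphosate treatment and the 4 titled as trunk control. The glyphosate group came from adult male Micropterus salmoides that had spent 21 days in water with 10 mg/L glyphosate, and the control group from adult males kept for the same 21 days in clean water. The other 16 libraries were trunk kidney of fish exposed to Rodeo, a commercial glyphosate formulation, at the same glyphosate concentration, and head kidney of all 3 treatments. The question was whether the herbicide changes which transcripts the trunk kidney makes. All fish came from tanks of 4, and the labels do not tie a library to a tank. Each p-value takes libraries as independent. Those from fits of single contigs set the difference between groups against the spread of libraries within all fitted groups. Those from exact permutation place the difference among all relabelings of the libraries. Whether libraries of a group shared a tank is not known, so an effect of tanks was not tested.

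Glyphosate blocks an enzyme of aromatic amino acid synthesis that plants and many microbes have and vertebrates lack. In bony fish the trunk kidney carries most of the nephrons, whose glomeruli and tubules filter the blood and recover salts and small molecules, with blood-forming tissue lying between them. A few transcripts of transport and housekeeping proteins usually make up a large part of the messenger RNA of such an epithelium, so the way counts are spread over transcripts describes the tissue as much as single transcripts do.

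Counts were deposited for transcript contigs, sequences assembled from reads, under identifiers that are not gene names. Over the series there were 78435 contigs, and 0 could be paired with a gene in the RefSeq gene table of this species, so contigs are given by identifier and no tubule, glomerulus or blood cell marker could be checked. The label trunk kidney was therefore not tested against markers. Library totals were close, from 22957354 to 25694573 counts with glyphosate and from 22312688 to 29858387 in controls. Of the 78435 contigs, 74198 had a count in at least 1 of the 8 libraries and 37392 in each of them. Several contigs can stem from 1 gene and near-identical contigs can share reads, so single values are uncertain to that extent.

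The treatment labels were also set beside another feature of the data. In 57 contigs the libraries of each tissue fell into a high and a near-absent set, with more than 8-fold between the sets in both tissues, and this on/off pattern was compared between trunk and head libraries. For 5 of the 8 libraries it was alike in at least 98.2% of the contigs with a single head library, while pairs without such a match were alike in at most 86.0%. In all 5 matches the head library carried another treatment label. Whether matched libraries stem from the same fish was not tested, nor which label, if any, is wrong. Trunk glyphosate 1 and 4 matched head Rodeo 3 and head control 2. Trunk controls 1, 2 and 3 matched head glyphosate 3, head glyphosate 4 and head Rodeo 1. Trunk glyphosate 2, trunk glyphosate 3 and trunk control 4 had no match. The groups below are those of the titles, and values from the 3 unmatched libraries are given beside the main results. Having no match leaves the labels of these 3 libraries unchecked, so their values are no test of the labels.

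The trunk kidney libraries labelled glyphosate spread their counts over fewer contigs than the controls, with 1 exception among the 4. When 9000000 counts were drawn from each library, the number of contigs expected with at least 1 count was 58148, 50203, 49460 and 42745 in glyphosate 1 to 4. In controls 1 to 4 it was 53146, 55325, 60466 and 59977. Glyphosate 2, 3 and 4 lay below every control, while glyphosate 1 lay among the controls. The means were 50139 ± 6305 contigs with glyphosate and 57229 ± 3574 in controls (SD, n = 4 each). The difference was -7090 contigs, with an exact permutation p of 0.0857 (two-sided) and an adjusted p of 0.2 over 7 composition measures. The smallest p this test can give with 4 against 4 libraries is 0.0286. A single measure at that p would not pass the adjustment over 7 measures. Without glyphosate 4, the library with the fewest contigs, the difference was -4625 (exact permutation p = 0.171). Without glyphosate 1, the only glyphosate library among the controls, it was -9759. Leaving out that library fixes the outcome of the test. The remaining groups cannot overlap, and p is the smallest that 3 against 4 libraries allow (exact permutation p = 0.0571).

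**Figure D1:**
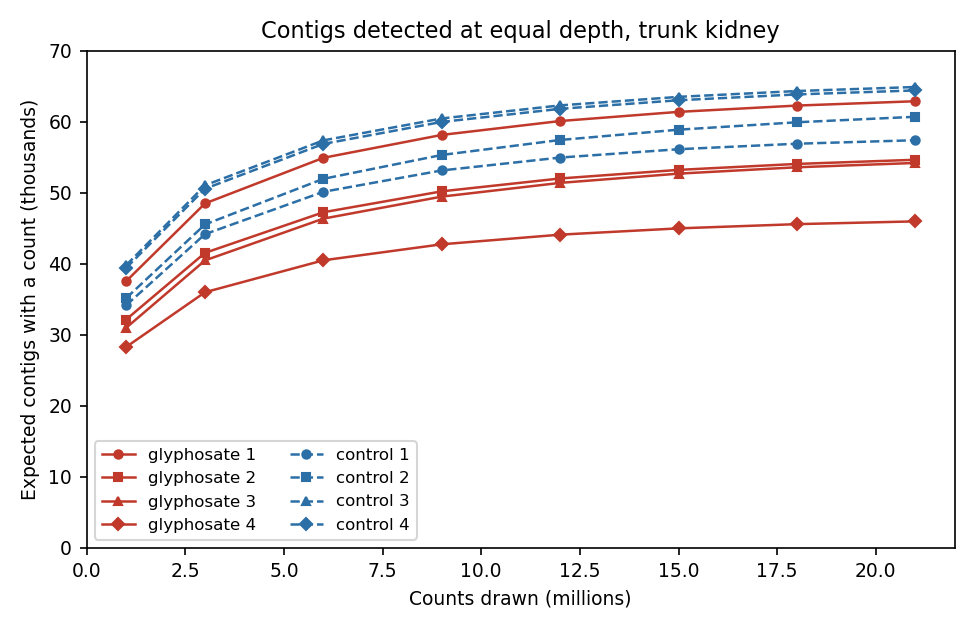
Expected number of contigs with at least 1 count against the number of counts drawn, one line for each of the 4 glyphosate libraries (solid red) and 4 control libraries (dashed blue). Glyphosate 2, 3 and 4 run below all controls at every depth shown, and glyphosate 1 runs between the upper and the lower pair of controls, at 58148 contigs for 9000000 counts.

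The most abundant contigs took a larger share of the counts in 3 of the 4 glyphosate libraries. The 1000 most abundant contigs of each library held 48.3%, 60.1%, 58.3% and 66.5% of the counts in glyphosate 1 to 4, and 53.4%, 50.0%, 41.1% and 45.1% in controls 1 to 4. Here too glyphosate 2 to 4 lay above all controls and glyphosate 1 among them. The means were 58.3% ± 7.53 with glyphosate and 47.4% ± 5.39 in controls (SD, n = 4 each, exact two-sided permutation p = 0.0857, adjusted p = 0.2).

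Shorter lists, which hold less of a library, gave smaller gaps in percentage points but not relative to the control mean. The means were 30.4% with glyphosate against 21.7% in controls for the top 100, and 10.0% against 6.89% for the top 10. The 100 most abundant contigs held 22.02%, 34.9%, 28.1% and 36.6% of the counts in glyphosate 1 to 4, against 26.3%, 24.5%, 16.05% and 19.9% in controls 1 to 4 (exact permutation p = 0.114, adjusted p = 0.2). For the 10 most abundant the shares were 6.63%, 14.3%, 7.83% and 11.3% with glyphosate, against 8.44%, 7.83%, 5.23% and 6.07% in controls (exact permutation p = 0.171, adjusted p = 0.2). Glyphosate 2 and 4 were then the only libraries above all controls.

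Put the other way round, 1126, 393, 552 and 253 contigs were enough to hold 50% of the counts in glyphosate 1 to 4. In controls 1 to 4 it took 782, 1002, 1707 and 1391 contigs. The means were 581 ± 383 contigs with glyphosate and 1220.5 ± 411 in controls (SD, n = 4 each, exact permutation p = 0.0857, adjusted p = 0.2). Of the 3 libraries with no matching head library, glyphosate 2 and 3 needed 393 and 552 contigs and control 4 needed 1391, and the share of the top 1000 was 60.1% and 58.3% against 45.1%.

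**Figure D2:**
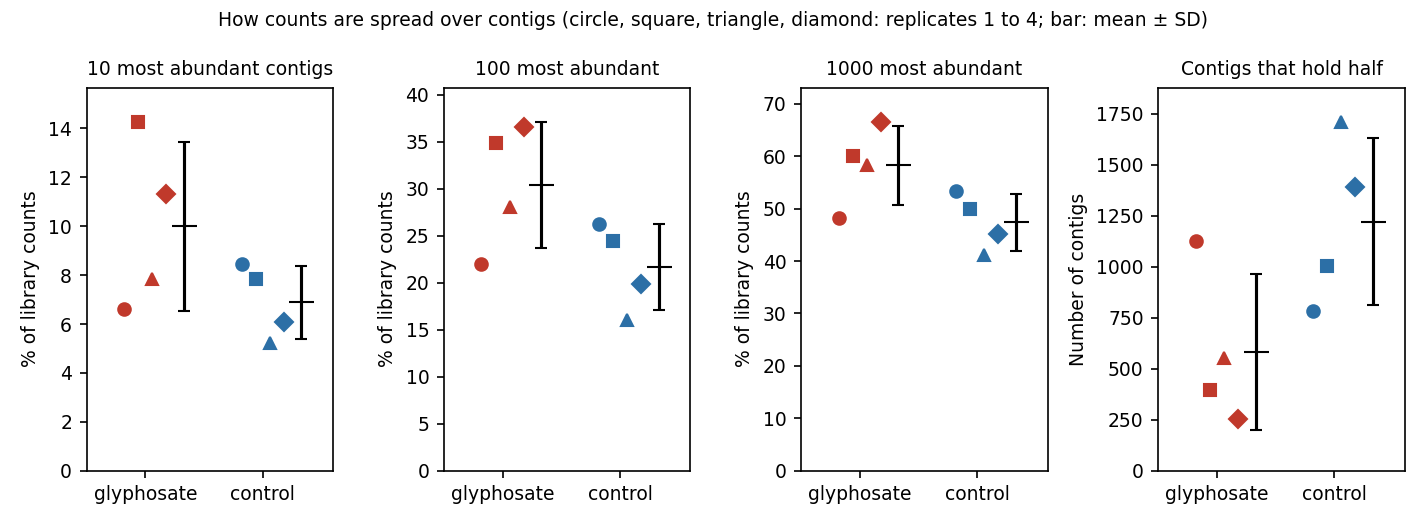
Share of library counts (%) held by the 10, 100 and 1000 most abundant contigs of each library, and the number of contigs that together hold 50% of its counts, in 4 glyphosate (red) and 4 control (blue) libraries. Each symbol is 1 library and the bar is the mean ± SD. Glyphosate 2 to 4 sit above all controls for the top 100 and top 1000 contigs and below all controls in the last panel, while glyphosate 1 sits within the range of controls in each panel.

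For the kinds of identifier the group means were close. Contigs named LMB_Assem, 25062 of all contigs, held 75.15% ± 1.14 of the counts with glyphosate and 75.4% ± 0.935 in controls (SD, n = 4 each, exact permutation p = 0.771, adjusted p = 0.771). That test has too little resolution to show that the shares are equal. Contigs enriched in head kidney were followed as a stand-in for neighbouring tissue. Enrichment was judged on the mean of all head libraries, which 1 library can carry. The list held 2225 contigs at least 8 times higher in that mean than in trunk Rodeo libraries, 1232 of them in the trunk fit. Their mean log2 CPM (a contig's count relative to the library total, scaled by the composition factor TMM) was 0.78, 0.49, 0.10 and 0.17 in glyphosate 1 to 4, against 0.37, 1.0, 0.68 and 1.07 in controls 1 to 4. The groups overlapped (difference -0.39, exact permutation p = 0.143, adjusted p = 0.2), and the part of such tissue in the other composition measures was not tested. Of all contigs in the trunk fit, those at a log2 CPM of 0 to 2 in Rodeo libraries had a median log2 fold change of -0.20. Whether -0.39 goes beyond such a shift was not tested. The share of library counts in head-enriched contigs was 1.16% with glyphosate, carried by glyphosate 4 (2.58%), against 0.985% in controls. Without the contigs that stood out in single libraries, described below, glyphosate 4 was at 0.827%. In bulk tissue, fewer cells of a type and less RNA per cell cannot be told apart.

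The contig with the highest mean CPM over the 8 libraries was LMB_Assem.1591.C1, a rank carried by glyphosate 2 and 4, the libraries in which it came first. It stood at 5140, 84645, 20158 and 62322 CPM in glyphosate 1 to 4, against 11671, 8707, 3424 and 2675 CPM in controls 1 to 4. Glyphosate 2, 3 and 4 thus lay above every control and glyphosate 1 within their range. The means were 43066 ± 36800 CPM in the exposed group and 6620 ± 4307 CPM in the clean-water group (SD, n = 4 each). The trunk Rodeo libraries stood at 2868 to 6573 CPM, within the range of the controls. In edgeR the log2 fold change of LMB_Assem.1591.C1 between glyphosate and control was 2.70 with an SE of 0.819, at an adjusted p of 0.461. DESeq2 gave it an adjusted p of 0.0178. In the fit of unmatched libraries, resting on 1 control, the edgeR log2 fold change was 4.31. Over fits without 1 library the edgeR adjusted p ran from 0.129 to 0.828. The contig was named for a mean that glyphosate libraries carried, so its p-values and fold changes are not free of that choice.

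In glyphosate 2 this contig was the most abundant and took 6.78% of all counts of the library, and in glyphosate 4 it was also the first, with 3.83%. In glyphosate 1 and 3 and in controls 1 and 4 the first contig was LMB_Assem.6026.C1. In the 4 controls the first contig took 0.882% to 2.15%. With LMB_Assem.1591.C1 left out, an alternative chosen after the data were seen, the top 10 contigs held 7.54% ± 1.07 with glyphosate and 6.56% ± 1.25 in controls, a difference of 0.981 percentage points in place of 3.12. The top 1000 then held 57.0% ± 7.02 against 47.1% ± 5.26 (SD, n = 4 each), a difference of 9.94 points in place of 10.9. The second contig by mean level, LMB_Assem.6026.C1, had 11834, 13889, 22745 and 19037 CPM in glyphosate 1 to 4, against 22675, 6137, 6439 and 9488 CPM in controls 1 to 4. Its groups overlapped, and edgeR gave a log2 fold change of 0.59 with an SE of 0.563 and an adjusted p of 0.698. Without control 1 the log2 fold change was 1.2 (edgeR adjusted p = 0.424, within 0.424 to 0.90 over fits without 1 library), and with library totals it was 0.15.

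The fitted differences also varied with the abundance of a contig. To sort contigs by abundance without using the libraries compared, the 43072 contigs that passed the filter on low counts were grouped by their mean CPM in the 4 trunk Rodeo libraries. Among the 406 contigs at a log2 CPM of 8 and above, 91.9% had a higher fitted mean with glyphosate, with a median log2 fold change of 0.77. In this class 147 contigs (36.2%) had an unadjusted p under 0.05 with a higher value and 0 with a lower one. Over all 43072 contigs the shares were 5.78% higher and 4.72% lower. All 4 glyphosate libraries lay above all 4 controls in 11 of the 406 contigs (2.71%) and below them in 0. Over all 43072 contigs these shares were 1.46% and 2.72%. Among the 10997 contigs at a log2 CPM of 0 to 2, 39.1% had a higher fitted mean and the median was -0.20. Of these, 374 (3.40%) had an unadjusted p under 0.05 with a higher value, against 610 (5.55%) with a lower one. These counts are on the TMM scale and depend on the scaling, as do the class medians below.

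The lowest class, 13370 contigs under 0, had a median of -0.30. The classes between had medians of -0.05 (2 to 4), 0.10 (4 to 6) and 0.27 (6 to 8). The sign of a class depends on how libraries are scaled. With library totals alone the medians were -0.64 for the class at 0 to 2, -0.36 at 4 to 6, -0.22 at 6 to 8 and 0.25 at 8 and above. The order of the classes was the same under both scalings, and only the highest class was above 0 under both.

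The difference between the highest class and the class at 0 to 2 depends little on the scaling, since a scaling factor moves both by nearly the same amount. Against the control mean it was 0.06, 0.82, 1.26 and 1.77 on the log2 scale in glyphosate 1 to 4, and 0.61, 0.27, -0.47 and -0.29 in controls 1 to 4. Glyphosate 2, 3 and 4 lay above every control, and glyphosate 1 did not. This measure was chosen after the data were seen and is given without a test.

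**Figure D3:**
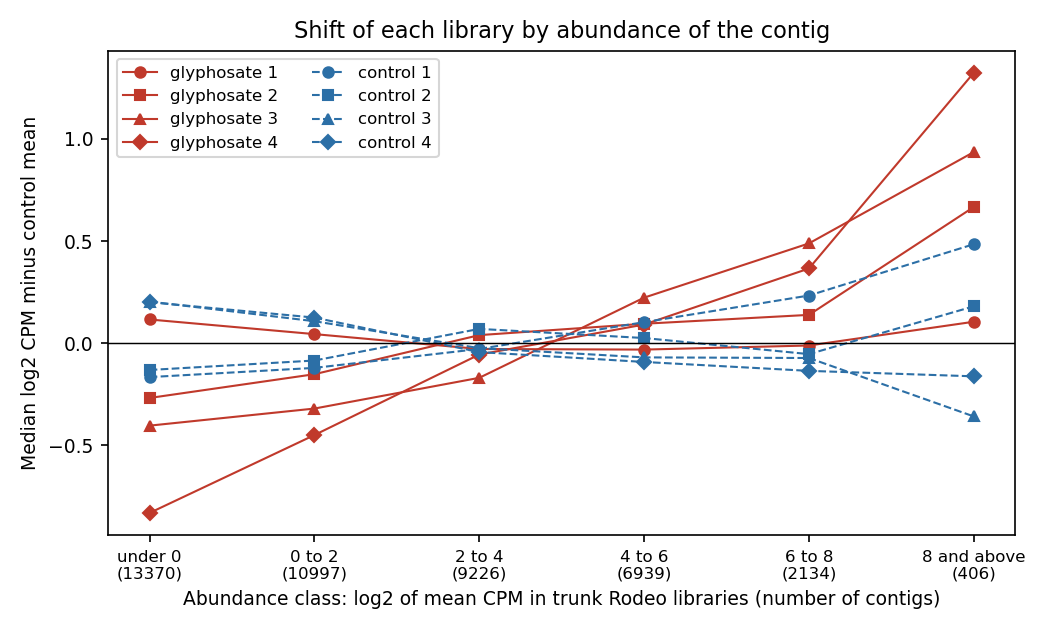
Median over contigs of a library's log2 CPM minus the mean of the 4 controls, by abundance class of the contig (log2 of the mean CPM in trunk Rodeo libraries, number of contigs in brackets), for 4 glyphosate (solid red) and 4 control (dashed blue) libraries. The lines of glyphosate 2, 3 and 4 climb with abundance, by 0.82 to 1.77 between the class at 0 to 2 and the class at 8 and above, while that of glyphosate 1 is nearly level (0.06) and control 1 climbs by 0.61.

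One glyphosate library held a set of contigs that the others nearly lacked. By a rule chosen after the data were seen, a contig stood out in a library when it had at least 10 CPM there, on library totals, and at least 16 times the highest of the other 7 libraries after adding 0.1 CPM. There were 63 such contigs in glyphosate 4, against 1, 1 and 6 in glyphosate 1, 2 and 3, and 1, 1, 1 and 15 in controls 1 to 4. Of the 63, 51 were isotigs and 12 LMB_Assem contigs. Together they held 3.08% of the counts of glyphosate 4, against 0.00368% to 0.0119% in the other 7 libraries.

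The most abundant of them stood at 4215 CPM in glyphosate 4 and between 1.65 and 11.7 CPM in the other 7 libraries. The same 63 contigs held 1.11% of the counts of head glyphosate 2 and 0.0848% of head glyphosate 4. In trunk Rodeo 3 they held 0.0263%, in the other 10 head libraries 0.00541% to 0.0108%. Head control 2, whose on/off contigs matched trunk glyphosate 4, was at 0.0108%. What these contigs encode is not known from the identifiers.

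In the controls, the 15 contigs of control 4 held 1.06% of its counts, led by 1 contig at 5389 CPM. That contig ranged from 0.123 to 34.3 CPM in the 4 glyphosate libraries and from 6.89 to 84.7 CPM in the other 3 controls. Without the 89 contigs that stood out in any of the 8 libraries, the difference between the groups was -7072 contigs at equal depth and 10.8 percentage points for the top 1000. The difference in the LMB_Assem share changed sign without them, to 0.266 points. The top 1000 contigs then held 65.9% of the counts in glyphosate 4 and 44.7% in control 4, and the expected numbers of contigs at equal depth were 42824 and 59999.

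**Figure D4:**
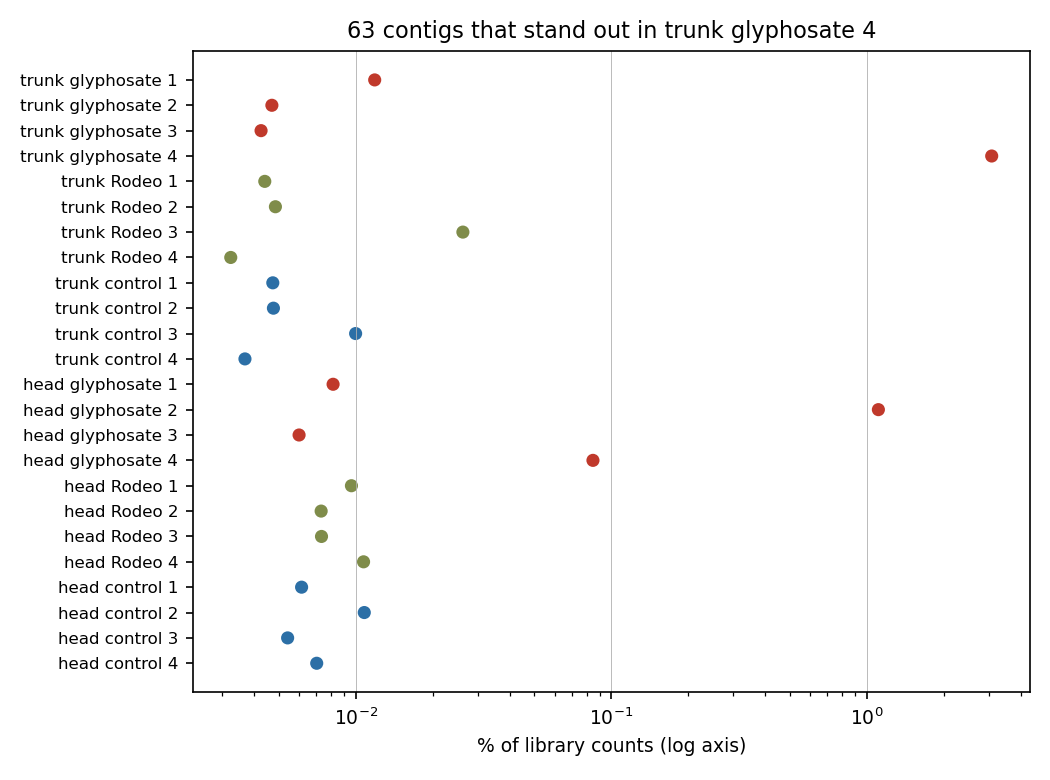
Share of library counts (%, log axis) held by the 63 contigs that stood out in trunk glyphosate 4, in all 24 libraries, coloured by treatment label (red glyphosate, green Rodeo, blue control). Trunk glyphosate 4 is at 3.08% and head glyphosate 2 at 1.11%, followed by head glyphosate 4 at 0.0848%, and every other library is at 0.0263% or below.

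For single contigs, edgeR's quasi-likelihood test found none past an adjusted p of 0.05 between trunk libraries labelled glyphosate and control (0 of 43072, 0%). The smallest adjusted p was 0.324. An unadjusted p under 0.05 was reached by 4521 contigs (10.5%), of which 2490 (5.78%) were higher with glyphosate and 2031 (4.72%) lower. A uniform distribution of p would give 2154 on average. With scaling by library totals alone the same test gave 6023 contigs at an unadjusted p under 0.05, of which 524 were higher and 5499 lower, since the median of all contigs was then at -0.53 in place of -0.08. The split between higher and lower contigs is thus a statement relative to the scaling. DESeq2 called 129 of 42047 contigs with an adjusted p (0.307%), 78 higher and 51 lower, and all 129 were among those with an unadjusted p under 0.05 in edgeR. For limma's voom with sample weights the number was 0, and 5740 had an unadjusted p under 0.05.

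The number of small p-values varied with the libraries in the fit. Without glyphosate 1 there were 8619 contigs at an unadjusted p under 0.05 (19.1% of 45054 tested), and still 0 past the adjusted threshold. Without glyphosate 4 there were 2995 (6.55% of 45698), and without control 3 there were 2468 (5.54% of 44523). The last share was close to what a uniform distribution of p would give. A fit of only the unmatched libraries of the trunk kidney (glyphosate 2 and 3, control 4 and Rodeo 3) was also made. That fit rests on 1 control, assumed to vary like the 2 glyphosate libraries, so no conclusion is drawn from its p-values and calls. Its counts are listed only with the other alternatives at the end.

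All 4 glyphosate libraries lay above all 4 controls in 627 contigs (1.46% of those tested) and below them in 1173 (2.72%). Of the 70 splits of 4 against 4 libraries, a single one gives such a separation in a given direction. Labels given at random would thus yield a share close to that of the higher contigs. Like the split of small p-values, both counts are relative to the scaling. Of the 74198 contigs with a count, 14 were counted in all 4 glyphosate libraries and in none of the controls, and 238 in all 4 controls and in none of the glyphosate libraries. In 0 of these did all 4 libraries reach 10 counts. Glyphosate 2, 3 and 4 had a count in 55195, 54582 and 46138 contigs, fewer than every control (57541 to 65331). What part this lower detection has in the 238 contigs was not tested.

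The contigs with the smallest p were taken by rule, 2 in each direction among those with a mean log2 CPM of at least 1. The first among the higher ones was isotig90068. It stood at 14.9, 26.5, 29.8 and 20.4 CPM in glyphosate 1 to 4, against 8.72, 5.49, 5.51 and 6.08 CPM in controls 1 to 4. All glyphosate libraries were above all controls, including glyphosate 1. The edgeR estimate was 1.83 on the log2 scale with an SE of 0.287, at an adjusted p of 0.324. The trunk Rodeo libraries, at 11.6 to 17.8 CPM, also lay above all controls. Their difference from the same controls was 1.14 (SE 0.282, edgeR adjusted p = 0.827).

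The second was LMB_Assem.5280.C1, an abundant contig. It stood at 510, 510, 448 and 476 CPM in glyphosate 1 to 4, against 160, 218, 123 and 212 CPM in controls 1 to 4. The 4 glyphosate libraries were close to each other and far above the highest control. Here edgeR estimated a difference of 1.45 on the log2 scale, with an SE of 0.274 and an adjusted p of 0.461. Rodeo libraries stood at 193 to 319 CPM, overlapping the controls.

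Among the lower ones, isotig75858 had 2, 2, 0 and 0 counts in glyphosate 1 to 4, against 155, 91, 214 and 205 counts in controls 1 to 4 (edgeR adjusted p = 0.324). In CPM this was 0.0730, 0.0971, 0 and 0 with glyphosate, where 3 counts would be 0.109 to 0.213 CPM, against 7.35, 2.97, 6.56 and 6.36 in controls. The groups were far apart, and the contig was nearly absent from Rodeo 3 too, at 0.173 CPM, while the other 3 Rodeo libraries were at 4.30 to 7.48 CPM. Over the 12 trunk libraries its largest gap between neighbouring values was 3.6 on the log2 scale. It is 1 of 202 tested contigs (0.469%) whose trunk libraries split with a gap of more than 3.

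LMB_Assem.6686.C2 stood at 2.59, 3.16, 0.761 and 1.56 CPM in glyphosate 1 to 4, against 10.0, 8.40, 18.3 and 13.6 CPM in controls 1 to 4. Every glyphosate library was below every control, by -2.63 on the log2 scale in edgeR, with an SE of 0.477 and an adjusted p of 0.461. The Rodeo libraries were as low, at 0.949 to 2.64 CPM, with a difference from the shared controls of -2.76 (SE 0.478, edgeR adjusted p = 0.146). The 4 contigs kept their direction in each of the 19 other fits, and DESeq2 placed all 4 past its adjusted threshold. They were picked for a small p in the same counts, so neither result is independent of that choice.

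**Figure D5:**
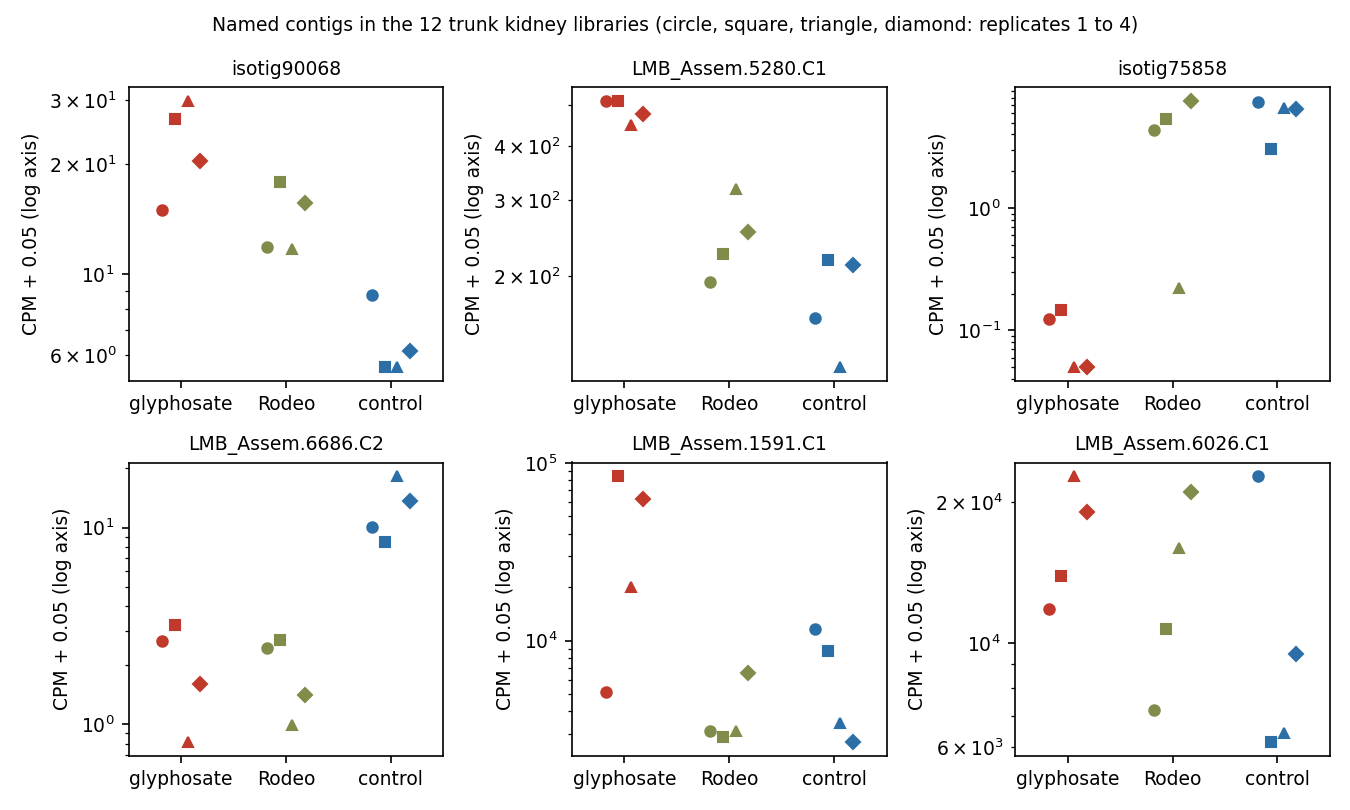
Level of 6 contigs (CPM + 0.05, log axis) in the 4 glyphosate (red), 4 Rodeo (green) and 4 control (blue) trunk kidney libraries, each symbol 1 library. For isotig90068 and LMB_Assem.5280.C1 all glyphosate libraries are above all controls, for isotig75858 and LMB_Assem.6686.C2 all are below, and for LMB_Assem.1591.C1 and LMB_Assem.6026.C1, the most abundant contigs, the groups overlap.

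The spread among libraries is given for both groups as a description. The Pearson correlation of log2 CPM across contigs, a description of likeness, was 0.856 to 0.900 between glyphosate libraries and 0.883 to 0.928 between controls, and 0.831 to 0.932 between a glyphosate and a control library. Among the 22826 contigs with a mean log2 CPM of at least 1, the median SD of log2 CPM was 0.563 with glyphosate and 0.437 in controls (n = 4 each), and 67.6% of the contigs had the larger SD with glyphosate.

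Whether glyphosate acted differently in trunk and head kidney was examined by subtracting the head effect from the trunk effect in a fit of all 24 libraries. By the titles, 0 of 52407 contigs passed an adjusted p of 0.05 in edgeR (0%). At an unadjusted p under 0.05 there were 6292 (12%). DESeq2, fitted to the same 52407 contigs, called 216 past the adjusted threshold. How many contigs had a DESeq2 adjusted p was not recorded for this difference. Without trunk glyphosate 1 edgeR called 7 of 55020 contigs tested, and without head glyphosate 1 it called 3 of 54938. At equal depth head kidney libraries held 52548 ± 4957 contigs with glyphosate and 46880 ± 7577 in controls (SD, n = 4 each, difference 5669, exact permutation p = 0.314). The sign was opposite to that in trunk kidney for this measure. For the top 10, top 100 and top 1000 shares head kidney differed in the same direction as trunk kidney, by 1.71, 3.15 and 0.53 percentage points, and for contigs holding 50% of the counts by -44.75. The difference between the tissues was -12758 contigs (exact permutation within tissues p = 0.0380, adjusted p = 0.190 over 5 measures), so it did not hold after adjustment. Without head control 3, the shallowest of these libraries at 9871623 counts and the one with the fewest contigs (36500), it was -9298 (exact permutation, adjusted p = 0.424). The fit and the permutations take the titles as given and the libraries as independent, although 8 trunk and head pairs matched in their on/off contigs and 0 of these share a treatment label. No fit without the matched libraries was made for the difference between tissues.

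For LMB_Assem.5280.C1 the levels in head kidney, on the scale of all 24 libraries, were 34.7 ± 5.74 CPM with glyphosate and 54.8 ± 13.6 CPM in controls, against 575 ± 35.6 and 212 ± 53.7 CPM in trunk kidney (SD, n = 4 each). Its effects differed by 2.10 on the log2 scale between the tissues (SE 0.413, edgeR adjusted p = 0.224). LMB_Assem.1591.C1 was also far more abundant in trunk kidney. In head kidney it averaged 1184 ± 651 CPM in glyphosate libraries, against 1438 ± 632 CPM in control libraries (SD, n = 4 each). Its effects differed by 2.97 on the log2 scale between the tissues (SE 0.883, edgeR adjusted p = 0.292). Both contigs were picked through their levels in the trunk libraries, so these differences are not free of that choice. In head libraries, isotig90068 was at most at 1.31 CPM and isotig75858 at most at 0.165 CPM, so their response there could not be measured.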

How the data were processed

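The deposited values are raw read counts per transcript contig, not normalized by the authors. Contigs absent from a library's list were set to 0. Per the labels' protocols, the libraries were directional and made from poly(A) RNA. The submitters' processing notes name cutadapt, SAMtools, DESeq and edgeR. Which aligner and counter made the counts, and how the contigs were assembled, is not given in the sources used here. Without molecular identifiers PCR copies cannot be told from molecules, and the limit of 3 counts covers counting error only.

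Groups come from the sample titles. The 3 trunk groups were fitted together in edgeR 4.0.16 under R 4.3.3 (quasi-likelihood F test after filterByExpr and TMM scaling, with p-values adjusted by Benjamini-Hochberg at 0.05), which left 43072 contigs and a biological coefficient of variation of 0.545. The SE is the log2 fold change divided by the square root of F. CPM of named contigs are TMM-scaled and shares are of raw library totals. DESeq2 1.42.0 and limma 3.58.1 were alternatives. Contigs expected at equal depth are exact hypergeometric expectations. Composition was tested by exact permutation in SciPy 1.17.1. Named were the 2 higher and 2 lower contigs of smallest p among those whose mean log2 CPM reached 1, and the 2 most abundant. An on/off contig needed, in both tissues, neighbouring values over 3 log2 units apart, 2 or more libraries above and below that gap, and a top value of 1.5 log2 CPM or more. A match needed mutual best partners alike in 90% of these contigs. Replicates differed far beyond sampling noise (chi-square per degree of freedom 46.2 to 158), so none was counted as a duplicate. The fit and the equal-depth expectation were tested on simulated counts, and the permutation code on small sets of numbers with known answers. The comparison, the lists and the measures were chosen with earlier results of these data known.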

Additional observations from a re-analysis of the deposited data

Results flagged for a closer look

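Among 34 groups of 4 libraries examined, 4 had a library far from the other 3, by the ratio of its gap to the group's range. Chance flags about 1 in 20 groups. Trunk glyphosate 4 stood apart with a summed 30830 CPM of the 63 contigs that stood out in it, against 42.6 to 119 CPM in the other glyphosate libraries. The 63 were picked for this gap. The same library had 2.58% of its counts in head-enriched contigs, against 0.517% to 0.848% in the other 3. It also had 16.2% in isotigs, against 12.97% to 13.5%. Both shares overlap with the 63 contigs, which include 51 isotigs. Without the 89 contigs that stood out in any library, glyphosate 4 had 0.827% in head-enriched contigs and 14.0% in isotigs. Among controls, control 3 had a summed 99.8 CPM of the 63 contigs, against 36.8 to 47.6 CPM in the other 3.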

How the results depend on the processing

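Under 17 of 19 alternatives, leave-one-out fits included, 0 contigs passed the adjusted threshold. The exceptions were DESeq2 (129) and the fit of unmatched libraries (250). The count at an unadjusted p under 0.05 ran from 2468 to 8619 over fits without 1 library, and was 2224 for the unmatched libraries. The counts for the unmatched libraries come from a fit with 1 control, so no conclusion is drawn from them. The 4 contigs with the smallest p and both abundant ones kept their direction in every alternative. For the 4, picked for a small p in the same counts, a change of direction was hardly possible. With a block for the replicate number 0 passed in edgeR, with 4037 at an unadjusted p under 0.05. Same-numbered glyphosate and control libraries had deviations correlating at -0.23, 0.35, 0.04 and -0.12, and 1 of the 4 glyphosate libraries correlated best with its own number, so the numbers were not taken to pair them. Differences in composition did not pass the adjusted threshold in the alternatives with a test. The unmatched libraries (2 against 1) gave values without a test, and leave-one-out tests within trunk kidney could not have passed. With 4 against 4 libraries a single measure at the smallest possible p could not have passed the adjustment over 7 measures either, only several at once. Leaving out 1 library, the difference ran from -9759 to -4625 contigs at equal depth, from 1.70 to 4.24 percentage points for the top 10, 6.66 to 11.5 for the top 100, 8.15 to 14.2 for the top 1000, and -821 to -477 contigs for those holding 50% of the counts. For head-enriched contigs it ran from -0.53 to -0.30 log2, and was -0.78 in the unmatched libraries, where the cause was not tested. The LMB_Assem share changed sign, at -0.805 to 0.0851 percentage points without 1 library and 0.266 without the contigs of single libraries. Between trunk and head kidney, edgeR called 0 to 7 contigs over leave-one-out fits, the 7 among 55020 tested. DESeq2 called 216 with 52407 contigs fitted. With the block edgeR called 0. The difference of tissues ran from -15428 to -9298 contigs, -0.0123 to 2.95 points (top 10), 3.51 to 8.37 (top 100), 7.62 to 13.7 (top 1000) and -776 to -433 contigs holding 50%. The smallest exact permutation p is 0.0286 with 4 against 4 libraries and 0.0571 with 3 against 4.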
